A study of Arabidopsis thaliana with 21 samples.

Results

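Radicle protrusion is the step at which an Arabidopsis seed becomes a germinated seed, and the comparison here set seeds at radicle protrusion (RP) against seeds at the preceding stage, testa rupture (TR). It used 6 of the 21 arrays of a series that followed Arabidopsis thaliana accession Col-0 through 7 stages of the seed to seedling transition, with 3 arrays at RP and 3 at TR, chosen by the stage in their titles. RP seeds had a radicle that had pushed through the endosperm, and TR seeds were swollen with a broken seed coat. The other stages were dry seed (DS), seed after 6 h of imbibition (6H), first root hairs (RH), greening cotyledons (GC) and opened cotyledons (OC).

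Both stages came from untreated wild-type seed that had been kept wet at 4 °C for 72 h and then moved to continuous white light at 22 °C. At each stage 3000 seeds were picked under a stereomicroscope, so stage and not clock time defined a sample, and each replicate was a pool of seeds gathered from 3 to 4 plants. The labels give no hours for RP or TR. RNA came from seeds with no part removed, so a change can come from fewer or more cells of a type or from less or more RNA per cell, and these cannot be told apart.

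In Arabidopsis the seed coat (testa) breaks before the thin living endosperm under it, and germination is complete when the radicle breaks that layer. The radicle emerges mainly by cell elongation in the lower axis, which needs loosened walls and water uptake into vacuoles. Gibberellin promotes and abscisic acid holds back this step, and DELLA proteins such as RGL2 repress it until gibberellin triggers their breakdown. Reserves of protein and oil packed during seed maturation feed the embryo until its chloroplasts work.

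Levels are log2 values of the array signal, and every change is RP minus TR on the log2 scale with its standard error (SE), so that 1 unit is a 2-fold difference. A gene is said to rise or fall where limma's Benjamini-Hochberg adjusted p was under 0.05 over all 27789 genes. By that rule 2177 genes rose (7.83% of those tested) and 2069 fell (7.45%), or 4246 in either direction (15.3%). With a change of at least 2-fold added, 650 rose (2.34%) and 213 fell (0.766%), 863 in all (3.11%). The median change over all genes was -0.01.

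Rises were therefore larger than falls although nearly as many genes fell as rose. Among genes past the 2-fold limit the median change was 1.35 for the 650 that rose and -1.24 for the 213 that fell, and 96 rises but 20 falls reached 4-fold. The 3 RP arrays lay wholly above the 3 TR arrays for 647 of the 650, against 16.4% of all genes, and wholly below them for 211 of the 213, against 19% of all genes. These genes were chosen by p and size on the same arrays, so their separation follows largely from the choice and is no further evidence. A level of 3.47, the 30th percentile of all values, is taken as a floor, since signal under it is close to the bottom of the scale. TR levels were under that floor for 146 of the 650 genes, and RP levels were under it for 37 of the 213. For such genes the array gives a lower limit to the true ratio.

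**Figure D1:**
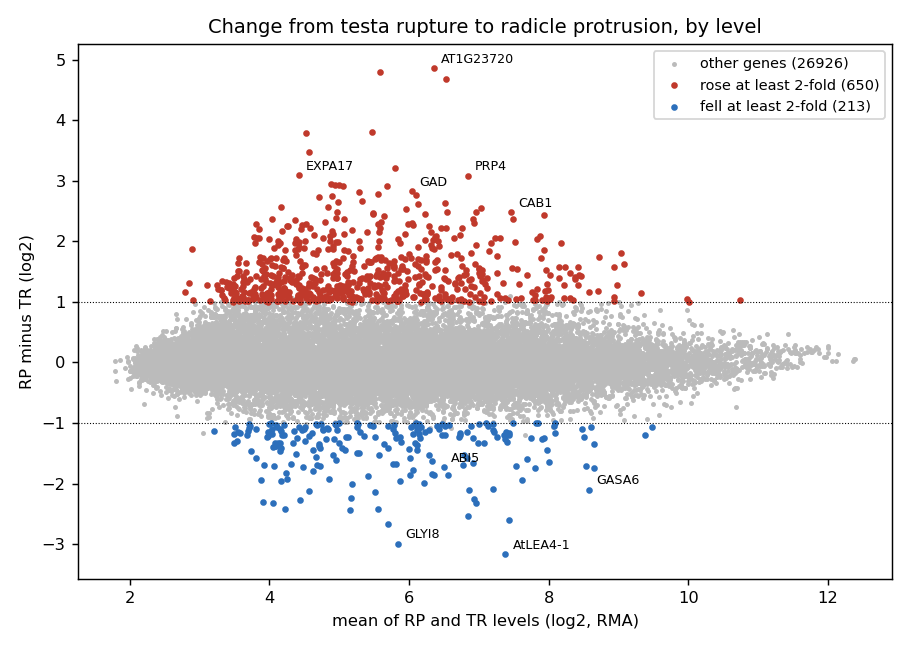
Change of each gene (RP minus TR, log2, vertical axis) against its mean level at RP and TR (log2, horizontal axis). Red points mark the 650 genes that rose at least 2-fold, blue points the 213 that fell at least 2-fold and grey points all others, and the rises reach 4.86 while the falls reach -3.17.

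Most genes that rose had their highest level in a later, seedling stage, and most that fell had it in an earlier one. Of the 650, 361 (55.5%) had their highest stage mean at OC, 134 at GC, 90 at RH and 57 (8.77%) at RP itself. Over all genes, 18.7% were highest at OC and 5.39% at RP. Of the 213, 95 (44.6%) were highest at DS, 57 at 6H and 52 at TR, against 37.7%, 17% and 7.36% of all genes. By the choice of these genes no rise could be highest at TR and no fall at RP. The shares highest at RP and TR thus follow in part from the choice and are no further evidence. The step before, TR against 6H, had 2723 genes up (9.8%) and 2041 down (7.34%) by the same 2-fold rule, and the step after, RH against RP, had 1014 up (3.65%) and 483 down (1.74%). These neighbouring steps share the TR or the RP arrays with this one.

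The 15 largest rises, and the 15 largest falls below, were taken from genes past the 2-fold limit whose RP and TR arrays did not overlap. Their separation is thus part of the choice. Of the 15 largest rises, 9 were of genes with no symbol in the reference table and 6 of named genes. AT1G23720 had 8.87, 8.94 and 8.55 in the RP arrays, against 3.35, 4.44 and 4.01 in the TR arrays, a change of 4.86 ± 0.18 (SE, adjusted p = 5.5e-13). No array of either stage came near the other, and the stage mean was 10.50 at RH. AT3G54580 changed by 4.79 ± 0.16, with 8.14, 8.16 and 7.63 in the RP arrays, against 3.1, 3.62 and 2.81 in the TR arrays. AT3G28550 followed with 4.68 ± 0.17, then AT4G30170 with 3.81 ± 0.14 and AT2G41730 with 3.78 ± 0.27. The reference table gives these loci no symbol, so no role is given to them here. Of the 15, 5 had TR levels under the floor.

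EXPA17, an alpha-expansin of a family that loosens cell walls without cutting them, had 5.65, 6.21 and 6.04 in the RP arrays, against 2.71, 2.79 and 3.12 in the TR arrays. All TR values lay under the floor and all RP values well above it, a change of 3.09 ± 0.21. PRP4, a proline-rich cell wall protein, had 8.59, 8.36 and 8.21 in the RP arrays, against 4.92, 5.54 and 5.44 in the TR arrays, 3.08 ± 0.19 higher at RP. XTH7, an enzyme of the family that cuts and rejoins xyloglucan, had 6.68, 6.46 and 6.38 in the RP arrays, against 3.58, 3.35 and 3.84 in the TR arrays, a change of 2.92 ± 0.21. In both genes every RP array exceeded every TR array by more than the spread within either stage. AGP13, an arabinogalactan peptide, had 5.61, 6.74 and 6.89 in the RP arrays, against 3.48, 3.63 and 3.31 in the TR arrays, so that the first RP array was clearly lower than the other two yet above all TR arrays.

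PPa5, a soluble pyrophosphatase, rose by 3.21 ± 0.17, and GAD, a glutamate decarboxylase, rose by 2.83 ± 0.12. GAD had 7.41, 7.58 and 7.38 in the RP arrays, against 4.64, 4.89 and 4.36 in the TR arrays. The rest of the 15, AT1G54890, AT3G27950, AT1G29025 and AT1G68230, rose by between 2.92 and 3.47. Of the 15, 12 had a higher stage mean at RH than at RP. AT1G68230 did not: its stage mean was 7.15 at RP, 4.23 at TR and 5.92 at RH.

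The largest fall was of AtLEA4-1, a late embryogenesis abundant (LEA) protein of the kind that protects drying cells. It had 5.70, 5.65 and 6.03 in the RP arrays, against 8.65, 9.00 and 9.25 in the TR arrays, a change of -3.17 ± 0.27 (SE, adjusted p = 6.9e-08). Its stage mean was 11.84 in dry seed, and TR already lay below that. GLYI8, of the glyoxalase I family that detoxifies methylglyoxal, had 4.11, 4.43 and 4.50 in the RP arrays, against 7.12, 7.44 and 7.46 in the TR arrays, a change of -2.99 ± 0.15. LEA4-5 changed by -2.32 ± 0.33 and CYP71A26, a cytochrome P450, by -2.32 ± 0.20, with all RP arrays of CYP71A26 under the floor. The other 11 of the 15 largest falls have no symbol in the reference table, and lay between -2.67 (AT4G21020) and -2.14 (AT5G44310). 12 of the 15 were highest in dry seed, and all 15 were lower still at RH.

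AT2G43860 had another course among them. It had 4.46, 4.08 and 4.49 in the RP arrays, against 6.70, 6.87 and 6.71 in the TR arrays, and its stage means were 3.64 at DS, 3.05 at 6H and 3.78 at RH, so that TR stood above the stages on both sides. The SAUR-like auxin-responsive gene AT5G66260 likewise had its highest stage mean, 7.48, at TR and fell by 1.86 ± 0.32 at RP.

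**Figure D2:**
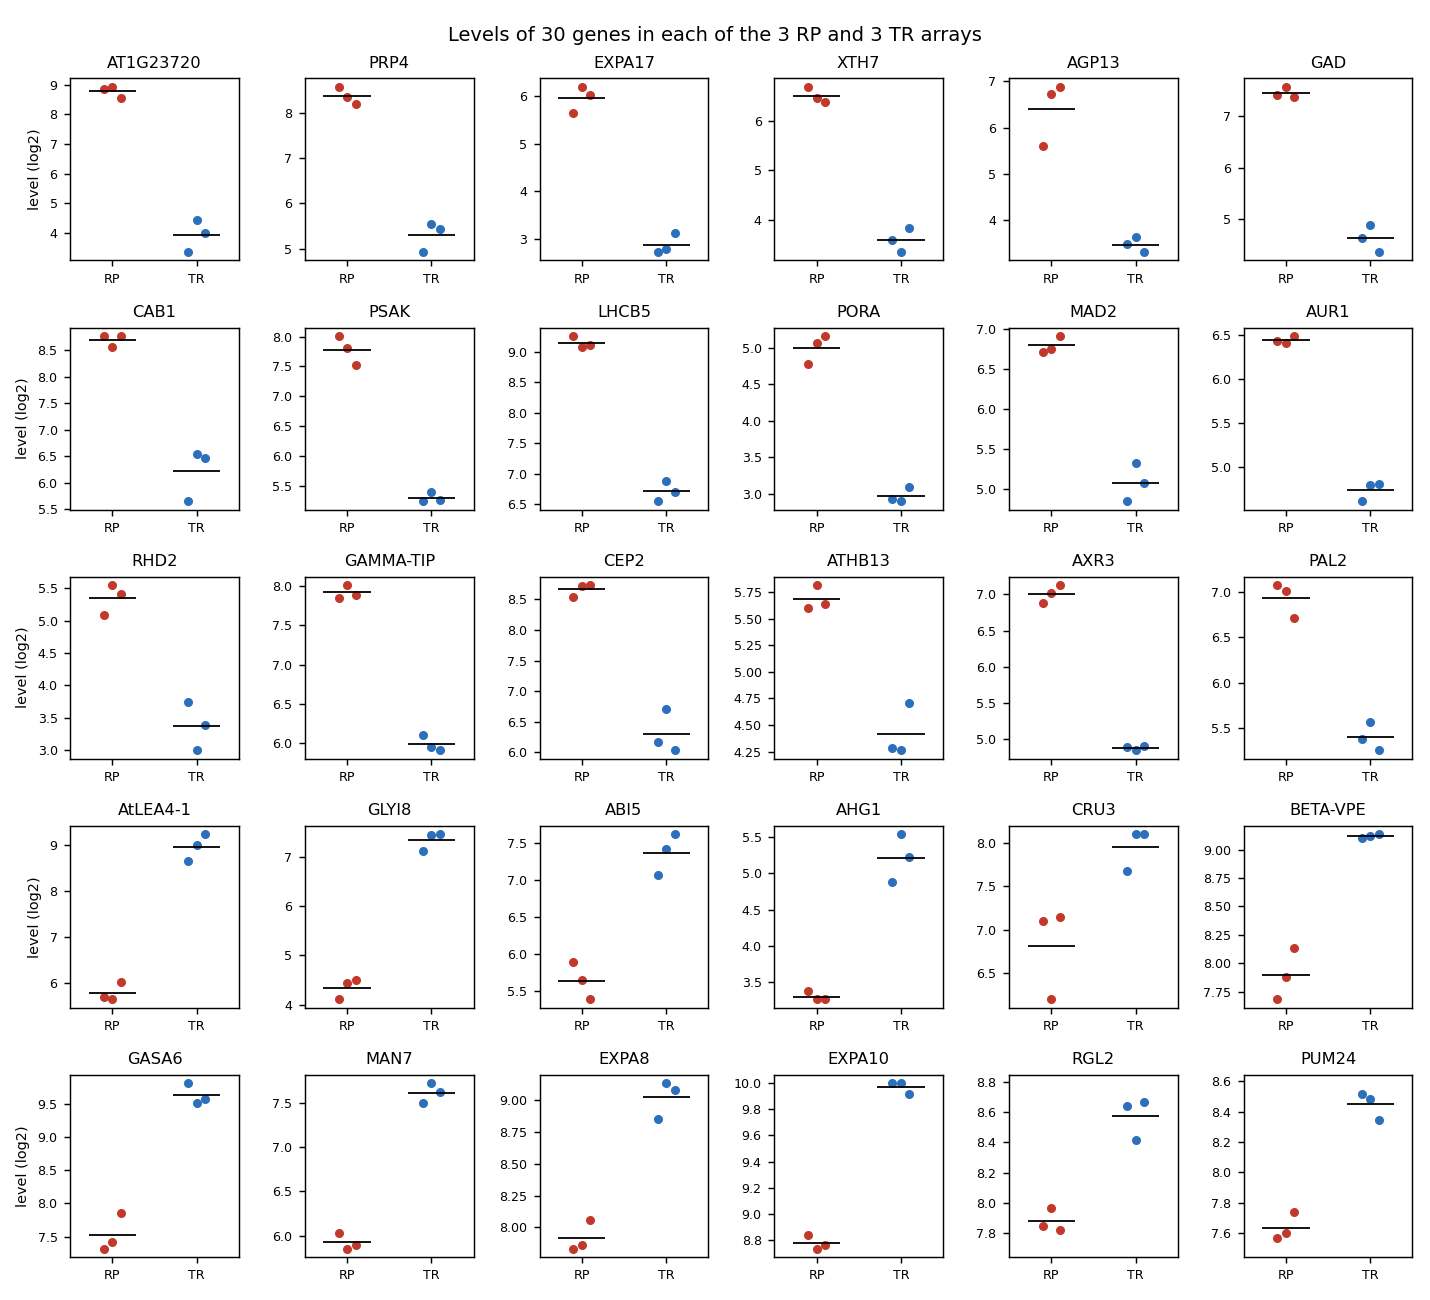
Level (log2, vertical axis, a separate scale for each gene) of 30 genes in the 3 RP arrays (red, left) and the 3 TR arrays (blue, right), with a bar at the mean of each stage. In every panel the RP and TR arrays do not overlap, as they do not for 35.5% of all genes. The 30 genes were picked among those called on these same arrays, so their separation follows largely from the choice. The top 3 rows hold genes that rose and the lower 2 rows genes that fell.

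Gene lists for the pathways of this tissue were set beside the background of 7.83% risen and 7.45% fallen. The 38 lists hold 890 members, of which 873 were measured. Most genes named from them were the largest changes that passed on these same arrays. That their RP and TR arrays do not overlap follows largely from the choice. Over all genes, 35.5% had RP and TR arrays without overlap. Wall, water and root hair genes come first, since the step is one of growth, and then the hormones, the reserves, the chloroplast, cell division and the rest.

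Expansins moved both ways. Of 26 measured, 4 rose and 4 fell, and the median change was -0.07. Besides EXPA17, the rises included EXPA7 at 0.94 ± 0.18 and EXPA11 at 0.83 ± 0.19 among others. EXPA8 fell, with 7.83, 7.87 and 8.06 in the RP arrays, against 8.86, 9.14 and 9.08 in the TR arrays, and so did EXPA10, with 8.84, 8.73 and 8.76 in the RP arrays, against 10.00, 10.00 and 9.91 in the TR arrays, and EXPA15, by 1.32 ± 0.18. RP arrays of all 3 lay below the TR arrays, and yet EXPA8 and EXPA10 kept RP levels far above the floor. EXPA1, a gibberellin-responsive expansin of the embryo axis, changed by -0.59 ± 0.19 (adjusted p = 0.04), a call that was lost when any 1 of the 6 arrays was left out. EXPA2, the germination-specific member, had 9.60, 9.76 and 9.74 in the RP arrays, against 10.46, 10.20 and 10.44 in the TR arrays, and its change of -0.66 ± 0.35 did not pass (adjusted p = 0.24).

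Of 33 xyloglucan enzyme genes (XTH), 6 rose and 2 fell, with a median change of 0.12. XTH24 rose by 1.47 ± 0.23 and XTH2 by 0.92 ± 0.18, while XTH33 fell by 1.68 ± 0.35 and XTH25 by 1.21 ± 0.35. The XTH25 call was lost without RP replicate 2, TR replicate 1 or TR replicate 2. Among 16 mannanases and pectin enzymes 4 rose and 1 fell. MAN7, an endo-beta-mannanase that cuts the mannans of endosperm walls, had 6.03, 5.85 and 5.89 in the RP arrays, against 7.5, 7.72 and 7.62 in the TR arrays, a change of -1.69 ± 0.19. Its 3 RP arrays lay close together and below all TR arrays. The rises included PME5, a pectin methylesterase, at 0.77 ± 0.18, and BXL1, a xylosidase/arabinosidase, at 0.87 ± 0.25. The call on BXL1 was lost without any 1 of 5 arrays, and the list's rises numbered 2 without RP replicate 2, RP replicate 3 or TR replicate 1.

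Cellulose synthesis genes rose in 8 of 14 cases and none fell, with a median of 0.31. The 3 largest were the catalytic subunits of secondary walls, CESA4 at 1.56 ± 0.20, IRX1 (CESA8) at 0.94 ± 0.21 and IRX3 (CESA7) at 0.80 ± 0.17. CESA4 had 4.72, 4.70 and 5.5 in the RP arrays, against 3.34, 3.44 and 3.45 in the TR arrays, all under the floor, with the third RP array higher than the other RP arrays. Without RP replicate 2 or RP replicate 3 the list's rises numbered 5. MYB46, a switch for secondary wall genes, rose by 1.52 ± 0.17, the largest rise among 147 MYB factors named in the reference, of which 18 rose and 1 fell. IRX12, a laccase of lignin formation, rose by 2.25 ± 0.20, and 5 of 16 laccases rose while none fell. XCP1, a protease of xylem cells, rose by 1.14 ± 0.24. Of 15 tubulins, TUB6 alone passed, at 0.48 ± 0.15, and that call was lost without any 1 of 5 arrays. TUB1 had a change of 0.69 ± 0.26 with no overlap of arrays but did not pass (adjusted p = 0.085).

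Cell wall proteins were grouped by their names in the reference table: 12 of 37 extensins and proline-rich proteins rose and none fell, and 15 of 49 arabinogalactan and fasciclin-like proteins rose and none fell. The shares risen, 32.4% and 30.6%, are to be read against 7.83% of all genes. The phenylpropanoid and flavonoid list, 20 genes with a median change of 0.51, held 10 rises and 1 fall. PAL2, which makes cinnamate from phenylalanine at the head of the pathway, had 7.08, 7.01 and 6.71 in the RP arrays, against 5.38, 5.57 and 5.25 in the TR arrays, and 4CL2, which activates the acids made from it, rose by 1.29 ± 0.18. MYB12, a regulator of flavonol genes, rose by 1.15 ± 0.33, but its arrays overlapped, with 5.68, 4.86 and 6.29 in the RP arrays, against 3.88, 4.28 and 5.22 in the TR arrays. TT7, the flavonoid 3'-hydroxylase, fell by 0.74 ± 0.20, also with overlapping arrays. The MYB12 call was lost without any 1 of 4 arrays, and that on TT7 without RP replicate 3 or TR replicate 3.

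Of 20 aquaporins (water channels) measured 9 rose and none fell, with a median of 0.41 and no call for the other 11. Of these rises, 5 reached 2-fold. The largest rises were of tonoplast channels, which let water into the vacuole. TIP4;1 had 6.09, 6.32 and 6.22 in the RP arrays, against 3.72, 3.94 and 3.53 in the TR arrays, GAMMA-TIP (TIP1;1) had 7.86, 8.02 and 7.89 in the RP arrays, against 6.10, 5.95 and 5.90 in the TR arrays, and TIP2 (TIP1;2) rose by 2.47 ± 0.16. All RP arrays stood more than 1 unit above all TR arrays in these genes. TIP3;1, the tonoplast channel of maturing seed, was the largest change that did not pass, at -0.43 ± 0.27, with means of 3.70 at RP and 4.13 at TR after 11.23 in dry seed.

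Of 23 root hair genes measured, 8 rose at RP, the stage before the one defined by root hairs, 6 of them by 2-fold or more, and 1 fell, which leaves 14 without a call. RHD2, the NADPH oxidase of the growing hair tip, had 5.09, 5.56 and 5.41 in the RP arrays, against 3.75, 2.99 and 3.39 in the TR arrays. RHS19 rose by 2.06 ± 0.17 and LRX1, a leucine-rich repeat extensin of the hair wall, by 1.65 ± 0.17. RP levels of RHS19 and LRX1 were lowest in the third array but above all TR arrays. RHD6, which specifies hair cells, changed by -0.18 ± 0.22 and did not pass, and its relative RSL1 fell by 0.89 ± 0.27, a call lost without any 1 of 5 arrays. The median level of the list was 4.28, 4.56 and 4.29 in the RP arrays, against 3.33, 3.11 and 3.39 in the TR arrays, and it averaged 7.14 at RH.

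Of 17 genes of root meristem patterning 1 rose and 3 fell. UPB1, a factor that sets where root cells stop dividing and start to elongate, had 5.04, 4.77 and 4.53 in the RP arrays, against 2.82, 2.67 and 2.93 in the TR arrays, all under the floor, a change of 1.97 ± 0.17. PLT1 and AIL6, AP2 factors of the root stem cell niche, fell by 0.92 ± 0.25 and 0.69 ± 0.17, and SMB, a NAC factor of the root cap, fell by 0.76 ± 0.18. The PLT1 call was lost without RP replicate 2, RP replicate 3 or TR replicate 2. Of 20 Casparian strip and suberin genes none rose and FAR5, a fatty acyl reductase of suberin, fell by 1.46 ± 0.16. In the wax and cutin list 9 of 23 rose and none fell. These included CYP96A15, an alkane hydroxylase of stem wax, at 1.56 ± 0.20, and the very long chain fatty acid synthases KCS6, at 1.14 ± 0.14, and KCS1, at 1.09 ± 0.18.

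Genes of abscisic acid (ABA) signalling and seed maturation fell more often than they rose, 11 against 3 of 42. ABI5, a bZIP factor that halts germination under ABA, had 5.89, 5.64 and 5.39 in the RP arrays, against 7.06, 7.42 and 7.62 in the TR arrays, a change of -1.73 ± 0.19. ABI3, a master regulator of maturation, had 7.38, 7.23 and 7.14 in the RP arrays, against 8.74, 8.68 and 8.66 in the TR arrays. AHG1, a phosphatase that restrains ABA signalling in seeds, had 3.37, 3.26 and 3.27 in the RP arrays, all under the floor, against 4.88, 5.54 and 5.23 in the TR arrays, a change of -1.92 ± 0.16. In these genes every RP array lay at least 1 unit below every TR array. RDO5 (AT4G11040), a dormancy gene, fell by 1.53 ± 0.18. The falls thus held a promoter of ABA signalling, ABI5, and a brake on it, AHG1.

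Of the ABA-degrading enzymes, CYP707A2 fell by 0.97 ± 0.25, though not without RP replicate 2, and CYP707A1 changed by 0.45 ± 0.18 without passing (adjusted p = 0.097). The 3 rises were PYL6, an ABA receptor, at 0.51 ± 0.15, and the synthesis enzymes ABA1, at 0.47 ± 0.12, and ABA2, at 0.42 ± 0.14, and all 3 calls were lost when arrays were centred on reference genes. DOG1, the dormancy protein, was at the floor in all 6 arrays after 8.75 in dry seed. Without TR replicate 2 the list's falls numbered 7, and without RP replicate 1, RP replicate 3, TR replicate 1 or TR replicate 2 its rises numbered 1.

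In the gibberellin list of 38 genes, 10 fell and 1 rose, and the median change was -0.17. GASA6, a gibberellin-induced peptide that promotes germination, had 7.32, 7.42 and 7.85 in the RP arrays, against 9.81, 9.50 and 9.57 in the TR arrays, a change of -2.10 ± 0.19 (SE, adjusted p = 2.5e-07). The DELLA repressor RGL2 had 7.85, 7.97 and 7.82 in the RP arrays, against 8.64, 8.42 and 8.67 in the TR arrays, and RGL3, another DELLA, fell by 0.87 ± 0.13. For both repressors the arrays did not overlap, and the changes stayed under 2-fold. The rise was of GID1B, a gibberellin receptor, at 0.74 ± 0.16. Synthesis enzymes gave no rise: GA20OX3 fell by 1.19 ± 0.18, GA3OX1 changed by -0.02 ± 0.18, and GA3OX2 had 10.05, 9.79 and 9.77 in the RP arrays, against 10.40, 10.28 and 10.45 in the TR arrays, a change that did not pass (adjusted p = 0.079). Without RP replicate 1 the list's falls numbered 6.

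Of 48 auxin genes measured, 11 passed as rises and 6 as falls. AXR3 (IAA17), an Aux/IAA repressor that auxin itself induces, had 6.88, 7.01 and 7.13 in the RP arrays, against 4.89, 4.85 and 4.91 in the TR arrays, a change of 2.12 ± 0.15. IAA7, of the same family, rose by 1.24 ± 0.14. GH3.3, which conjugates auxin to amino acids, rose by 1.81 ± 0.20, while its relatives GH3.1 and DFL1 (GH3.6) fell by 1.38 ± 0.18 and 1.1 ± 0.18. The auxin influx carrier LAX2 fell by 0.61 ± 0.19. The count of falls was 2 under a further quantile normalization, and 2 or 3 without any 1 array other than RP replicate 1.

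Cytokinin genes rose in 7 of 20 cases and none fell. They included the cytokinin-induced response regulators ARR3, with 6.03, 6.14 and 5.81 in the RP arrays, against 4.07, 4.06 and 4.28 in the TR arrays, and ARR7, at 1.24 ± 0.30, and IPT5, a synthesis enzyme, at 1.22 ± 0.19. Without RP replicate 2 the rises numbered 4. In the ethylene list 3 of 24 rose and none fell, among them the synthesis enzymes EFE, at 1.58 ± 0.17, and ACS7, an ACC synthase, at 1.1 ± 0.20. Of 22 jasmonate genes 6 rose and none fell, among them the synthesis enzymes AOC3, at 1.22 ± 0.13, and AOS, at 0.83 ± 0.17, and the repressor TIFY7 (JAZ9), at 1.1 ± 0.25. In the brassinosteroid list of 14, ROT3, a synthesis enzyme, fell by 0.92 ± 0.19 and BR6OX1 rose by 0.36 ± 0.12, a call lost in 10 of the alternatives tried.

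Photosynthesis was the list with the largest share of risen members. Of 61 measured, 48 rose, 36 of them at least 2-fold, and none fell, with a median of 1.2 against -0.01 over all genes. CAB1 (LHCB1.3), a light-harvesting protein of photosystem II, had 8.76, 8.56 and 8.77 in the RP arrays, against 5.65, 6.54 and 6.46 in the TR arrays, a change of 2.48 ± 0.25. PSAK, a subunit of photosystem I, had 8.01, 7.81 and 7.52 in the RP arrays, against 5.24, 5.40 and 5.27 in the TR arrays, and LHCB5, a minor antenna protein, had 9.26, 9.08 and 9.10 in the RP arrays, against 6.55, 6.88 and 6.71 in the TR arrays. In each gene the lowest RP array was at least 2 units above the highest TR array. RBCS1A, a small subunit of Rubisco, had 10.16, 10.19 and 10.18 in the RP arrays, against 9.90, 9.77 and 9.91 in the TR arrays, a change of 0.32 ± 0.10, a call lost in 11 of the alternatives.

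LHCB2.1 was the largest change of the list that did not pass, at 0.78 ± 0.30, although its arrays did not overlap. CAB2 (LHCB1.1), a near-identical neighbour of CAB1, lay under the floor at both stages. Signal of such copies can be split or shared on an array, so the values of single LHCB1 and LHCB2 genes are uncertain. The list's median level was 8.11, 8.02 and 8.01 in the RP arrays, against 6.26, 6.54 and 6.58 in the TR arrays. It averaged 4.64 at 6H, 9.19 at RH and 10.37 at OC, so RP lay inside a climb that went on afterwards.

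Chlorophyll synthesis genes rose in 11 of 19 cases and none fell, with a smaller median of 0.32. PORA, a light-dependent protochlorophyllide reductase abundant in dark-grown seedlings, had 4.78, 5.07 and 5.17 in the RP arrays, against 2.93, 2.90 and 3.09 in the TR arrays, all under the floor, a change of 2.03 ± 0.13. GUN5, a subunit of magnesium chelatase, rose by 1.28 ± 0.19, and CH1, chlorophyllide a oxygenase, by 0.84 ± 0.10. Without RP replicate 3 or TR replicate 3 the list's rises numbered 7. All 94 genes of the chloroplast genome itself had higher RP than TR means, and the median was 0.22, against -0.01 over all genes. Yet 11 passed as rises, or 11.7%, against 7.83% of all genes. Of 100 mitochondrial genome loci 44 had higher and 56 lower RP means, none rose and 2 fell.

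Light and clock genes went both ways, with 5 rises and 5 falls among 36. PIL6 (PIF5), a phytochrome-interacting factor, rose by 1.42 ± 0.22, ELIP2, an early light-induced protein, by 1.05 ± 0.18, and the morning clock factor CCA1 by 0.83 ± 0.18. ELF4, a member of the evening complex, had 9.18, 8.62 and 9.02 in the RP arrays, against 10.10, 10.04 and 9.90 in the TR arrays, and CGA1, a GATA factor that promotes chloroplast growth, fell by 0.80 ± 0.16. The number of falls was 2 without RP replicate 2 or TR replicate 2, and 3 without TR replicate 3.

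**Figure D3:**
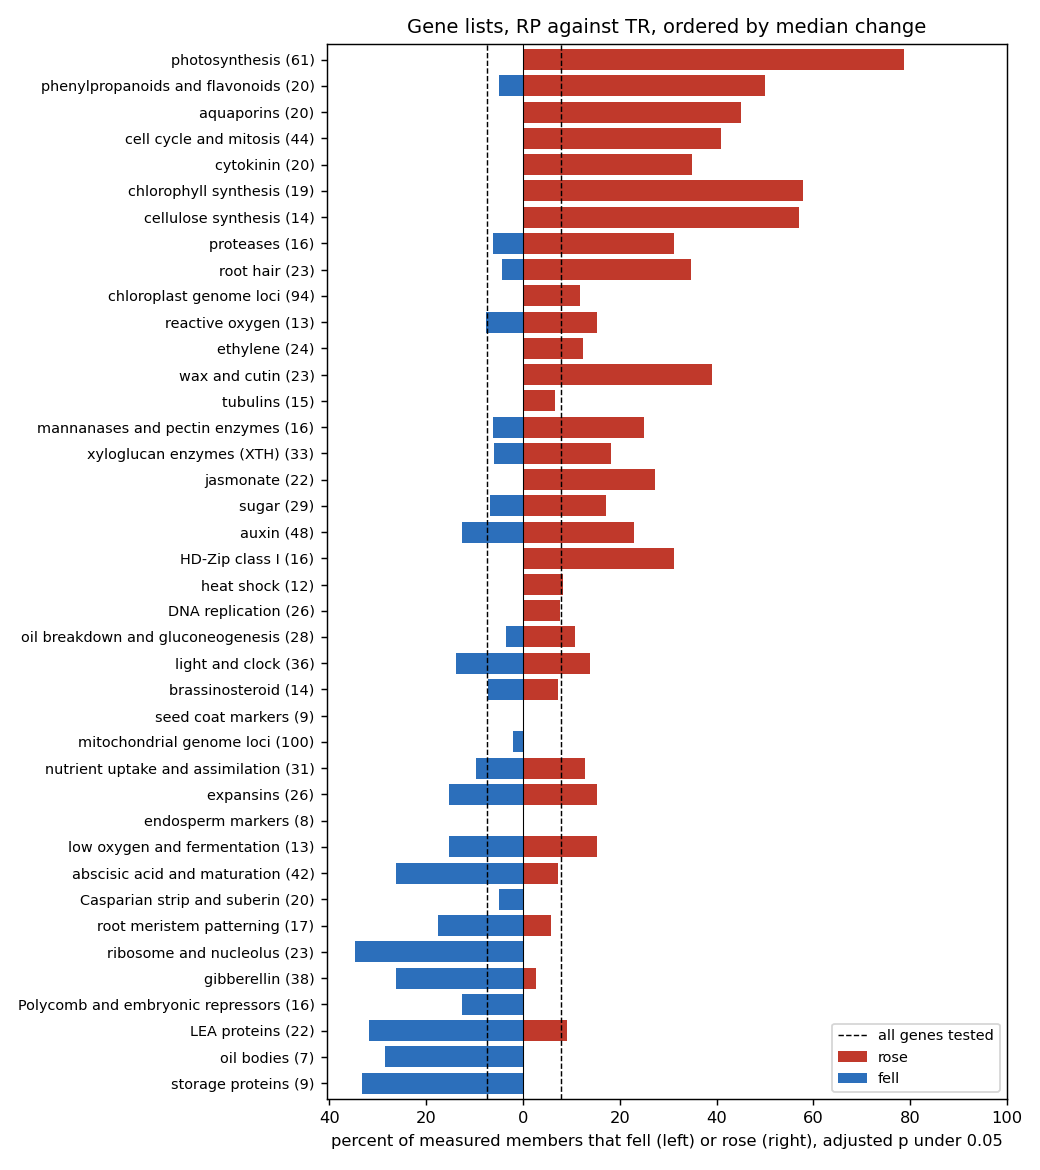
Percent of the measured members of each list that rose (red, right) or fell (blue, left) at RP against TR, with the number measured in brackets and lists ordered by median change. Dashed lines mark the shares over all genes, 7.83% risen and 7.45% fallen, and photosynthesis (48 of 61 risen) stands at the top while storage proteins (3 of 9 fallen) stand at the bottom.

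The median level of the storage proteins was 5.79 at RP and 6.47 at TR, after 11.69 in dry seed. Of 9 measured 3 fell and none rose, all 9 had lower RP than TR means, and the median change was -0.75. CRU3, a cruciferin, had 7.10, 6.20 and 7.15 in the RP arrays, against 7.68, 8.11 and 8.10 in the TR arrays, a change of -1.15 ± 0.37 (adjusted p = 0.041), with the second RP array lowest. The CRU3 call was lost in 8 of 16 alternatives, among them the fits without any 1 array other than RP replicate 3. CRU2 fell by 1.23 ± 0.35 and PAP85, a vicilin-like protein, by 1.16 ± 0.30. SESA3, a 2S albumin, changed by -1.08 ± 0.49 and CRA1, the most abundant cruciferin, by -0.74 ± 0.29, neither passing. Without TR replicate 2 none of the 9 passed, 1 passed without RP replicate 2, and with the 6 arrays fitted alone 6 passed.

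Of 7 oil body genes 2 fell, OLEO2, an oleosin, by 0.92 ± 0.24 and ATS1 (AT4G26740), a caleosin, by 1.09 ± 0.25. The OLEO2 call was lost without TR replicate 2. OLEO1 had 5.91, 5.08 and 5.66 in the RP arrays, against 6.12, 6.36 and 5.95 in the TR arrays, and its change of -0.59 ± 0.32 did not pass. In the LEA list of 22, 7 fell, 6 at least 2-fold, and 2 rose. EM1 had 4.16, 3.78 and 4.12 in the RP arrays, against 4.97, 5.71 and 5.60 in the TR arrays, a change of -1.41 ± 0.25, while GEA6 (EM6) changed by -1.08 ± 0.43 without passing. The rises were of KIN2 (COR6.6), at 1.34 ± 0.45, and ERD14, a dehydrin, at 0.55 ± 0.15, both known from cold and drought rather than from seed. Both were lost when arrays were centred on reference genes, the KIN2 call also without any 1 array and the ERD14 call without RP replicate 1, TR replicate 1 or TR replicate 2.

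Of 28 enzymes that turn stored oil into sugar, 3 rose and 1 fell, the fall not without RP replicate 1, RP replicate 3 or TR replicate 2. The median change was 0.04, and none changed 2-fold. ICL, isocitrate lyase of the glyoxylate cycle, had 11.63, 11.72 and 11.66 in the RP arrays, against 11.56, 11.50 and 11.57 in the TR arrays, and PCK1, which starts gluconeogenesis, had 11.48, 11.48 and 11.40 in the RP arrays, against 11.52, 11.42 and 11.47 in the TR arrays. MLS, malate synthase, changed by 0.12 ± 0.10. The rises were PMDH2, a peroxisomal malate dehydrogenase, at 0.73 ± 0.17, CAT3 (AT1G20620), a catalase, at 0.69 ± 0.10, and ACX1, an acyl-CoA oxidase, at 0.59 ± 0.09.

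Of 16 proteases 5 rose, 3 without RP replicate 1, and 1 fell. CEP2 and CEP3, papain-like endopeptidases with a KDEL tail, had the largest rises: CEP2 had 8.53, 8.73 and 8.74 in the RP arrays, against 6.17, 6.72 and 6.03 in the TR arrays, and CEP3 rose by 2.28 ± 0.18. BETA-VPE, which processes storage proteins as seeds mature, had 7.68, 7.87 and 8.13 in the RP arrays, against 9.10, 9.12 and 9.14 in the TR arrays, a change of -1.23 ± 0.14. In sugar supply 5 of 29 genes rose and 2 fell, with the sucrose exporters SWEET11 at 1.13 ± 0.19 and SAG29 (SWEET15) at 1.0 ± 0.14 the largest. The sugar rises numbered 2 without RP replicate 3 and 3 without TR replicate 1, and its falls 1 without any 1 of 4 arrays. In nutrient uptake and assimilation 4 of 31 rose and 3 fell. PHT1;1, a phosphate importer of roots, had 6.31, 6.31 and 5.77 in the RP arrays, against 3.83, 3.78 and 4.42 in the TR arrays, and GS2, the plastid glutamine synthetase, rose by 1.98 ± 0.15, while NIA1, a nitrate reductase, had 8.11, 7.88 and 7.96 in the RP arrays, against 9.39, 9.33 and 9.26 in the TR arrays.

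Of 44 cell cycle and mitosis genes 18 rose and none fell, with a median of 0.40 and no call for the other 26. Of these rises, 11 reached 2-fold. MAD2, of the spindle checkpoint, had 6.71, 6.75 and 6.91 in the RP arrays, against 4.84, 5.32 and 5.07 in the TR arrays, and AUR1, an Aurora kinase, had 6.43, 6.40 and 6.49 in the RP arrays, against 4.62, 4.80 and 4.81 in the TR arrays. HIK, a kinesin needed to build the new cell plate, rose by 1.51 ± 0.20. For all 3 the RP arrays lay above the TR arrays with little spread at RP. CYCB1;1, the mitotic cyclin in common use as a marker, changed by 0.25 ± 0.19 and did not pass (adjusted p = 0.46), and CYCD1;1, an early G1 cyclin, changed by -0.29 ± 0.15. Of 26 replication genes TK1a, a thymidine kinase, rose by 0.67 ± 0.17 and CDC45 by 0.44 ± 0.12, none fell, and the median was 0.06. MCM2, of the replication helicase, changed by 0.01 ± 0.16, with means of 7.37 at RP and 7.36 at TR after 3.12 in dry seed. Neither replication gene passed without RP replicate 3. With arrays centred on reference genes, 2 cell cycle genes and 1 replication gene fell.

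Ribosome and nucleolus genes fell in 8 of 23 cases and none rose, each by less than 2-fold, with a median of -0.16. PUM24, an RNA-binding protein of ribosomal RNA processing, had 7.57, 7.60 and 7.74 in the RP arrays, against 8.52, 8.48 and 8.34 in the TR arrays, PUM23 fell by 0.72 ± 0.14 and TOZ by 0.69 ± 0.14. RP arrays lay below TR arrays in all 3, which were named as the largest falls of the list, and in 19% of all genes. FIB2, a fibrillarin, changed by -0.30 ± 0.11 and did not pass. Of 16 Polycomb and embryonic repressor genes, SWN and RING1A fell by 0.32 ± 0.10 and 0.49 ± 0.16, and neither passed without any 1 of the 6 arrays.

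**Figure D4:**
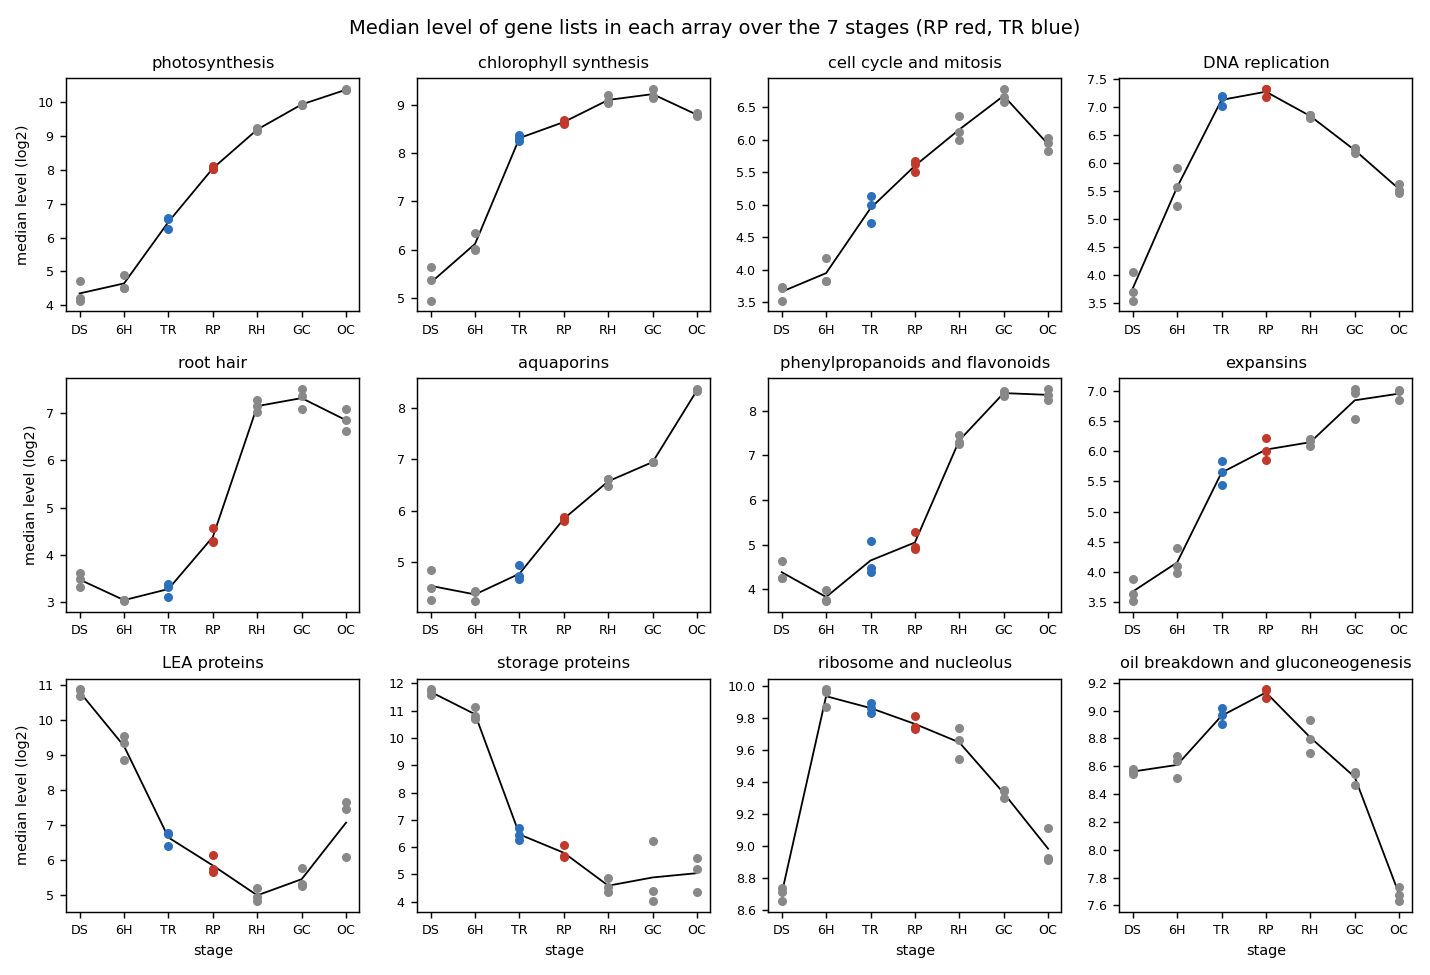
Median level of 12 gene lists (log2, vertical axis, a separate scale for each list) in every array over the 7 stages in order (horizontal axis), with RP in red, TR in blue and a line through the stage means. Photosynthesis, aquaporins and root hair genes climb from TR through RP to the seedling stages, and LEA and storage proteins go down from DS to RH, after which LEA reaches 7.06 at OC. DNA replication and oil breakdown genes have their highest stage mean at RP, but for DNA replication the RP and TR arrays overlap (means 7.28 and 7.13).

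Among transcription factors, class I HD-Zip genes rose in 5 of 16 cases and none fell. With arrays centred on reference genes, with arrays weighted in the fit or without TR replicate 1, HB51 passed as a fall. HB20 rose by 1.75 ± 0.20, ATHB13 had 5.60, 5.82 and 5.64 in the RP arrays, against 4.29, 4.26 and 4.70 in the TR arrays, a change of 1.27 ± 0.15, and AtHB23 rose by 1.27 ± 0.13. The study took up the gene HB13 from these samples, so its rise is not independent evidence. Of 72 WRKY factors 17 rose and 2 fell, with WRKY72 the largest rise at 2.06 ± 0.27 and WRKY32 the largest fall, by 0.57 ± 0.14. Of 97 NAC factors 11 rose and 14 fell, with NAC003 at 1.39 ± 0.24 and NAC060 at -1.94 ± 0.17. NAC060 had 3.0, 2.81 and 2.92 in the RP arrays, against 4.75, 4.91 and 4.90 in the TR arrays, under the floor at RP.

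Of 45 glutathione S-transferases, a family of detoxifying enzymes, 15 rose and none fell, with GSTU6 at 2.0 ± 0.17, and of 232 cytochromes P450 32 rose and 9 fell, with CYP71B7 at 2.78 ± 0.19. GER3, a germin-like protein of the cell wall, had 6.55, 6.22 and 5.97 in the RP arrays, against 3.58, 4.25 and 3.80 in the TR arrays and averaged 10.71 at RH. In the low oxygen list of 13, 2 rose and 2 fell: SUS4, a sucrose synthase induced by low oxygen, had 6.35, 5.91 and 6.49 in the RP arrays, against 3.70, 4.33 and 5.03 in the TR arrays, and SRO5 fell by 0.96 ± 0.20. The rises numbered 1 without any 1 of 5 arrays, and the falls 1 without RP replicate 2 or TR replicate 2. Of 13 reactive oxygen genes 2 rose and 1 fell, none by 2-fold, with 1 rise without RP replicate 3 or TR replicate 1 and no fall without any 1 of 4 arrays. Of 12 heat shock genes HSP18.2 alone rose, at 0.88 ± 0.15, with 2 rises without RP replicate 3, and HSP17.6II, which reached 0.93, did not pass, with overlapping arrays.

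No marker of the tissues around the embryo passed. None of 8 endosperm markers rose or fell, and 7 were under the floor at both stages, with list medians of 3.03 at RP and 3.11 at TR. EPR1 (AT2G27380), an extensin-like gene of the endosperm, was the one well above it, with 9.46, 9.26 and 9.22 in the RP arrays, against 9.81, 9.64 and 9.70 in the TR arrays, a change of -0.40 ± 0.19 (adjusted p = 0.17). All RP arrays of EPR1 lay below all its TR arrays, and it passed as a fall with the 6 arrays fitted alone. None of 9 seed coat markers passed, and 6 were under the floor at both stages. The endosperm list's median was 3.38 already in dry seed. Markers under the floor at both stages could not show a fall, whatever the share of their tissue. How far the share of endosperm or seed coat in the sample moved with the results above was not tested.

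The arrays of each stage were alike. Across genes, which are not independent replicates, Pearson's r was between 0.9908 and 0.9941 for arrays of one stage and between 0.9752 and 0.9797 for an RP array with a TR array. Array medians lay between 5.5 and 5.65 for these 6. As a check of the reference genes, 1 of 9 passed, as a rise.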

How the data were processed

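Total RNA of seeds and seedlings of 7 stages, 3 biological replicates each, was amplified from 50 ng and hybridised to arrays. The deposited table holds log2 values per probe set. Per the submitters' processing notes they come from RMA (background correction, quantile normalization and summary of probes). The version, the array platform and the annotation are not given in the sources used. Every value column belongs to 1 array. All 35986 probe sets were read, 215 whose values were identical under different locus names were left out, and probe sets of a locus were averaged, which gave 27789 genes. Values lay between 1.49 and 12.9. No detection call was used, so genes without clear signal were tested as well. The number of arrays limits the precision.

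With limma 3.58.1 in R 4.3.3, 1 linear model with a mean for each stage was fitted over all 21 arrays (14 residual degrees of freedom), the contrast RP minus TR was taken with eBayes, and p-values were Benjamini-Hochberg adjusted over all genes. On simulated data of the same size, 26.9% of genes changed by 0.5, 79.1% of those changed by 1 and 100% of those changed by 2 on the log2 scale were recovered. In that simulation 200 genes were changed, noise was independent between genes, and 8 unchanged genes were called. In the comparison itself 4246 genes passed. As the adjusted p depends on the share of changed genes, the simulated rates do not give the share of real changes recovered here.

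Names come from a RefSeq gene table (TAIR10.1). It gave 10537 genes a symbol. Families were grouped by matching those names and their synonyms, so they are partial and can also hold genes of other families. The lists and members were chosen with earlier results of these data known. Named genes are first the 15 largest rises and 15 largest falls past the 2-fold rule with no overlap of RP and TR arrays. Each list adds up to 3 rises, 3 falls and the largest change that did not pass. The largest in each family and a set named whatever its change complete them. In the lists, 17 members were left out because the table gives their locus another name, and 1 had no probe set of its own. Replicate numbers were not treated as pairs. Correlations of deviations from the stage mean were 0.0701, -0.328 and 0.0983 for same-numbered arrays. For differently numbered arrays they lay between -0.397 and 0.373. With 3 arrays a stage such correlations cannot decide whether samples were paired. Alternatives are in the closing section.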

Additional observations from a re-analysis of the deposited data

How the results depend on the processing

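The counts past 2-fold were 650 risen and 213 fallen. With no limit on size they were 2177 and 2069, at 4-fold 96 and 20, and with limma's treat test against 0.5 on the log2 scale 492 and 135. Leaving out 1 array gave 595 to 702 risen and 182 to 235 fallen. With each array centred on reference genes they were 530 and 268, which took the share of rises among the calls to 66.4%, against 75.3%, and the median of all genes to -0.09. With the replicate number as a block (replicate block) they were 650 and 212. No call among the genes named changed sign under any alternative, and 149 of 196 called genes kept their call in every one. Of 52 named genes that did not pass, 20 passed in none. Counts within lists move more: over all alternatives the fallen storage proteins numbered 0 to 6, the fallen LEA proteins 6 to 11, the risen ethylene genes 3 to 7, the risen cellulose genes 5 to 9 and the risen XTH genes 4 to 10. The distance between the stage means of RP and TR (1 minus Pearson's r across genes) was 0.0167, 0.0189 with Spearman's rho and 0.0229 without dim genes. The cause of these shifts was not tested. Small changes are the limit of 3 arrays a stage, and 8369 genes lay under the floor at both stages, of which 2 passed the 2-fold rule.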
